A study of Mus musculus with 6 samples.

Results

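Disease-associated microglia are microglia that gather at sites of damage in the brain and express a shared set of genes for lipid handling, phagocytosis and lysosomal activity. The 10 genes described here, Trem2, Tyrobp, Apoe, Gpnmb, Spp1, Lpl, Itgax, Clec7a, Cst7 and Cd9, are widely used to recognize that state, and were taken by gene name from the 55357 genes of the deposited table. All 10 were found, each under 1 identifier, and 9 had a mean of at least 10 normalized counts over the 6 cultures and were tested. Itgax did not reach that mean and is given by its values. The study examined how BRAF KE (K499E), a gain-of-function variant found in RASopathy patients, changes the transcriptome of primary astrocytes. Astrocytes were cultured from the cortex of C57BL/6 mouse embryos and either left nontransfected (NT, 3 cultures) or given a plasmid in which the CMV promoter, active in most cell types, drives FLAG-tagged BRAF KE (KE, 3 cultures), with RNA taken 48 hours after transfection. Not every cell of a dish need carry the plasmid, and the dishes had been shaken before replating, a step that removes loosely attached cells. Neither BRAF WT nor a plasmid without BRAF was given to any culture analysed here, so BRAF KE and transfection cannot be told apart. The deposited values are gene counts scaled by the authors for sequencing depth, here called normalized counts, and changes are given as log2FC, the difference between KE and NT in the mean of log2(normalized count + 1). Fold values are 2 to the power of the log2FC. Braf, measured first as the targeted gene, had 35025, 34933 and 40978 normalized counts with the plasmid and 925, 811 and 946 without it, which fits the labels.

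TREM2 is a surface receptor of microglia and other myeloid cells that binds lipids and lipoproteins, among them apolipoprotein E, and it signals mainly through its adaptor TYROBP (DAP12), whose phosphorylated tail recruits the kinase SYK. Microglia enter the disease-associated state in steps, of which the later ones depend on TREM2. In the healthy brain most apolipoprotein E is made by astrocytes, whereas Trem2, Tyrobp, Itgax, Clec7a and Cst7 are expressed mainly by myeloid cells, and Spp1, Cd9, Lpl and Gpnmb are shared with other glia or with cells outside the brain.

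The labels name the cells as cultured astrocytes, and the astrocyte markers were abundant in every culture. The 10 genes of an astrocyte list, which includes Gfap, Aldh1l1 and Slc1a3, summed to 109516 to 114729 normalized counts in NT and 150288 to 152751 in KE. Markers of the myeloid lineage were present as well, at a sum over 13 genes of 40514.5 to 49509.5 in NT and 3730 to 5735 in KE. None of the 13 was at 0 in all cultures, and of 10 homeostatic microglia markers only Siglech was. Depth, approximated from the worth of 1 read, was 24500000 to 34100000 reads, the lowest in KE replicate 2. Over all 15280 tested genes, 26% were called lower and 25.3% higher in KE at an adjusted p under 0.05, with a median log2FC of 0.0018. The 3 KE values lay entirely below the 3 NT values in 29.9% of these genes and entirely above in 30.1%.

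Trem2, Tyrobp, Clec7a and Cst7 changed most among the members. The 250 bases before the start of the canonical transcript are shown for Trem2, Clec7a and Cst7, which are among the genes that fell together. Sequences are from GRCm39 with starts from Gencode vM39, and read 5′ to 3′ on the strand of the gene, which is minus for Clec7a and plus for Trem2 and Cst7. Capitals mark matches, on either strand, to GAGGAA (a core of sites for the myeloid factor PU.1, reading TTCCTC on the other strand), TCANGTG (an E-box bound by MITF and its relatives) or TGANTCA (AP-1). The windows are chr17:48653179-48653428, chr6:129449741-129449990 and chr2:150412034-150412283.
Trem2: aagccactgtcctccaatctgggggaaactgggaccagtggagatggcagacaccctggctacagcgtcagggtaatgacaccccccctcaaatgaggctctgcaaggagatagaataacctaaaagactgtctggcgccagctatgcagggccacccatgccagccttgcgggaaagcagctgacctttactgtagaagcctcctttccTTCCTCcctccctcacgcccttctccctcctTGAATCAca
Clec7a: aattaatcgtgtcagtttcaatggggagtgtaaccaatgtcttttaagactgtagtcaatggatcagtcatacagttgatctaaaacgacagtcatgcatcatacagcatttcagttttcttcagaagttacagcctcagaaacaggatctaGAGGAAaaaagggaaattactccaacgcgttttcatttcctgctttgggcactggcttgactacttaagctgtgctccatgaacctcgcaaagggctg
Cst7: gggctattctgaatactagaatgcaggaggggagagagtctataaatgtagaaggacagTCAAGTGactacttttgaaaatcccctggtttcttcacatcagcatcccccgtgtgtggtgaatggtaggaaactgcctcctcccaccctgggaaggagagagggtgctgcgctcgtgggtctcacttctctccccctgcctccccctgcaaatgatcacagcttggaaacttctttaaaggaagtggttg

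GAGGAA starts 40 bases before the transcript start in Trem2 and 98 in Clec7a. The only match in the Cst7 window is to TCANGTG, 191 bases before the start, and Trem2 has a match to TGANTCA at 9 bases. They read TCAAGTG and TGAATCA, with A at the free base, so neither need be a site of the factors named. Matches were not limited to these genes, since the window of Lpl, which fell less, also holds GAGGAA, 156 bases before the start. None of the windows shown holds the ISRE-like motif of interferon response genes, searched as GAAA repeated after 2 free bases. The motifs were chosen after the expression values were seen. Among the windows of 21770 protein-coding genes, the shares are 22.9% for GAGGAA, 11.9% for TCANGTG, 6.17% for TGANTCA and 3.32% for the ISRE-like motif, so these letters are common and a match is not a binding site. Apoe, Spp1, Lpl and Clec7a have several annotated starts, and only the canonical one was searched. The Clec7a window, from 129449741, therefore touches the edge of the annotated gene, which ends at 129449742. The Lpl window, 69332893 to 69333142, lies wholly inside the annotated gene, which runs from 69284603 to 69360100. That of Apoe also lies wholly inside its annotated gene.

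Downregulation in KE was found for 7 of the 9 tested members, and upregulation for Spp1 and Cd9, where 51.3% of all tested genes were called in either direction. The falls ranged from 12.2-fold for Clec7a to 1.47-fold for Apoe, whereas the rises were 1.57-fold for Spp1 and 1.22-fold for Cd9. In all 10 members, Itgax included, the values of the 2 groups were fully separate, which was also the case for 59.9% of all tested genes. These are bulk cultures, so fewer cells of a type and less RNA per cell cannot be told apart.

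**Figure D1:**
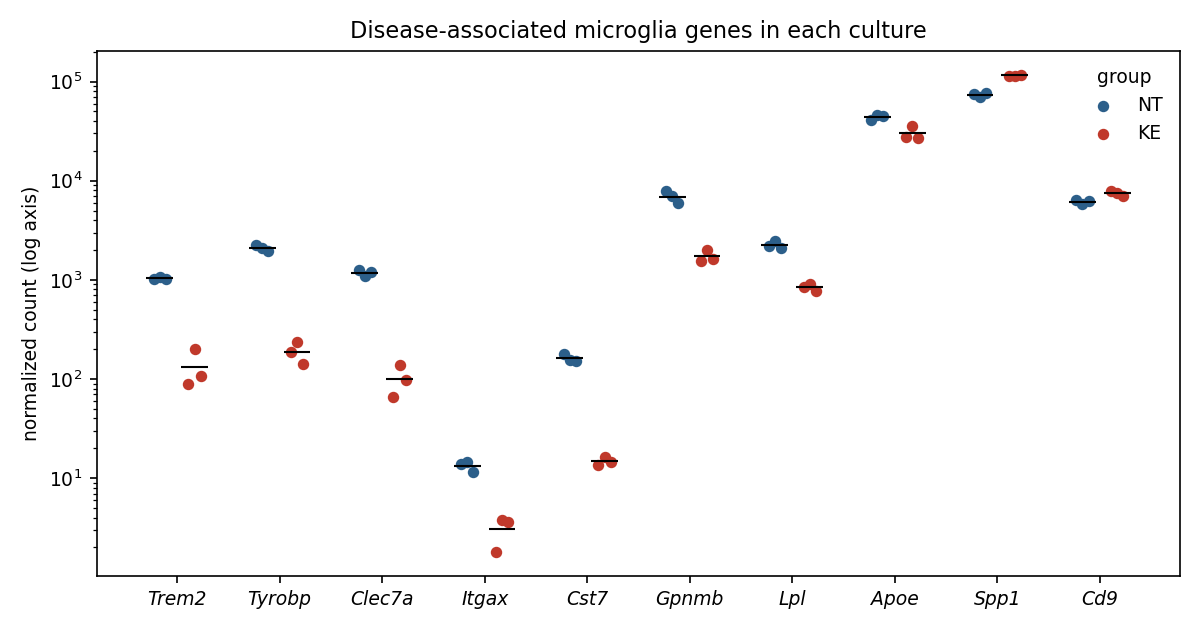
Normalized counts (log axis) of the 10 members in the 3 NT (blue) and 3 KE (red) cultures, with black lines at the group means. The members from Trem2 to Apoe are lower in every KE culture than in any NT culture, and Spp1 and Cd9 are higher.

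Trem2 (ENSMUSG00000023992), on the plus strand of chromosome 17 from 48653429 to 48661175, was 88.2, 202.6 and 106.2 normalized counts in KE replicates 1, 2 and 3 and 1032, 1073 and 1026 in NT replicates 1, 2 and 3. The NT cultures lay close together, while KE replicate 2 stood at about the sum of the other KE cultures. With means of 132 ± 61.5 in KE and 1043 ± 25.6 in NT (SD, n = 3), Trem2 was 8.36-fold lower. Its log2FC was -3.06 with a standard error (SE) of 0.24 (limma, Benjamini-Hochberg adjusted p = 1.5e-06). Without KE replicate 2, the log2FC was -3.42.

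Tyrobp (ENSMUSG00000030579) encodes the adaptor that carries the TREM2 signal and also serves other myeloid receptors. It lies on the plus strand of chromosome 7 from 30113170 to 30117010. Its values were 188.3, 235.5 and 140.1 in KE and 2265, 2083 and 1959 in NT, so that each NT culture exceeded each KE culture by a wide margin. The means of 188 ± 47.7 (SD, n = 3) and 2102 ± 153.8 (SD, n = 3) correspond to a log2FC of -3.51 (SE 0.15, limma adjusted p = 2.7e-08). Receptor and adaptor thus fell by 8.36-fold and 11.4-fold.

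Clec7a (ENSMUSG00000079293) encodes dectin-1, a receptor for fungal beta-glucan that also signals through SYK, and had the largest fall of the members, ranking 102nd of 15280 genes by log2FC from the lowest. It is on the minus strand of chromosome 6 from 129438554 to 129449742. The counts were 65.7, 136.9 and 96.7 in KE and 1260, 1087 and 1201 in NT. As for Trem2, KE replicate 2 was the highest of the KE cultures. The log2FC was -3.61 (SE 0.21, limma adjusted p = 1.7e-07).

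Cst7 (ENSMUSG00000068129) encodes cystatin F, an inhibitor of lysosomal cathepsins that immune cells make. From a gene on the plus strand of chromosome 2, at 150412284 to 150420864, the NT cultures gave 180.4, 153.7 and 150.4 and the KE cultures 13.5, 16.3 and 14.5 normalized counts. The KE cultures were nearly even here, with a coefficient of variation of 9.45% against 46.5% for Trem2. The log2FC was -3.37 (SE 0.20, limma adjusted p = 2.1e-07).

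Itgax (ENSMUSG00000030789) encodes the integrin subunit CD11c, which pairs with the product of Itgb2, and was near the limit of detection. It is on the plus strand of chromosome 7 from 127728668 to 127749829. The values of 1.81, 3.75 and 3.62 in KE and 13.9, 14.5 and 11.4 in NT correspond to 2, 3 and 4 reads and to 14, 14 and 12 reads. Per depth, the 40 NT reads against 9 KE reads were 4.42-fold higher (95% interval 2.11 to 10.4, exact Clopper-Pearson, which covers counting error only). Fitted without the filter on low genes, the log2FC was -1.85 with an adjusted p of 0.0067 from limma, where 15.8% of 25499 genes were called lower.

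Gpnmb (ENSMUSG00000029816) encodes a transmembrane glycoprotein that rises in lipid-laden macrophages and is a target of MITF-family factors. The gene lies on the plus strand of chromosome 6 from 49013426 to 49047863. It was 1551, 1995 and 1627 in KE and 7790, 6987 and 5970 in NT, with no NT culture near the KE range. The log2FC was -2.00 (SE 0.11, limma adjusted p = 1.1e-07), a 4.01-fold fall, smaller than that of Trem2, Tyrobp, Clec7a and Cst7.

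Lpl and Apoe handle lipoproteins. Lpl (ENSMUSG00000015568), lipoprotein lipase, which releases fatty acids from triglycerides, is on the plus strand of chromosome 8 from 69284603 to 69360100. Its values of 841, 899 and 771 in KE and 2175, 2471 and 2097 in NT gave a log2FC of -1.42 (SE 0.08, limma adjusted p = 1.8e-07). Apoe (ENSMUSG00000002985) is on the minus strand of chromosome 7 from 19430034 to 19434947. It was 27758, 35954 and 26984 in KE and 41045, 45888 and 45065 in NT, and the highest KE culture was again replicate 2. The log2FC was -0.55 (SE 0.10, limma adjusted p = 9.0e-04), and -0.68 without KE replicate 2. The means were 30232 ± 4970 in KE and 43999 ± 2592 in NT (SD, n = 3), and by the mean over all 6 cultures Apoe had rank 56 of 55357 genes.

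Spp1 and Cd9 went the other way. Spp1 (ENSMUSG00000029304), which encodes the secreted matrix protein osteopontin, lies on the plus strand of chromosome 5 from 104582165 to 104589235. It rose from 75073, 69494 and 76810 in NT to 113911, 114888 and 117412 in KE, a log2FC of 0.65 (SE 0.07, limma adjusted p = 1.6e-05). With rank 13 by the mean over all 6 cultures, Spp1 took 0.376% of all normalized counts in KE and 0.242% in NT. Cd9 (ENSMUSG00000030342), which encodes a tetraspanin of the cell surface and of extracellular vesicles, is on the minus strand of chromosome 6 from 125437210 to 125471778. Its values were 7890, 7508 and 6974 in KE and 6331, 5783 and 6239 in NT, a small rise with a log2FC of 0.28 (SE 0.06, limma adjusted p = 0.0030).

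Between genes, levels were compared per kb of the canonical transcript. In NT, Spp1 had the highest level at 33106 ± 1715 (SD, n = 3) normalized counts per kb, followed by Apoe at 20174 ± 1188 (SD, n = 3) and Cd9 at 4813 ± 231 (SD, n = 3). Tyrobp, Gpnmb, Clec7a, Trem2, Lpl, Cst7 and Itgax came next in that order, from 3463 down to 3.24 per kb. Only the neighbours Gpnmb and Clec7a overlapped in their culture values. In KE the same 3 genes led, but Gpnmb stood above Tyrobp and Lpl above Clec7a and Trem2, and the values of Clec7a overlapped those of both Lpl and Trem2. Other transcript models than the canonical one were not tried.

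**Figure D2:**
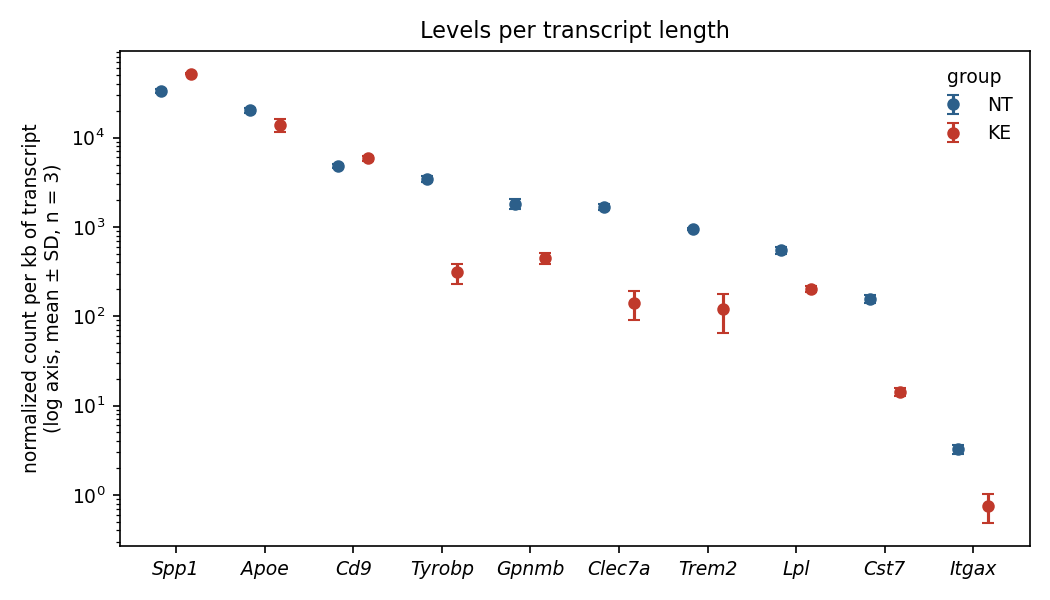
Normalized count per kb of the canonical transcript (log axis, mean ± SD of 3 cultures) for each member in NT (blue) and KE (red), ordered by the NT level. Spp1, Apoe and Cd9 lead in both groups, and the levels run from 33106 (Spp1) to 3.24 (Itgax) per kb in NT and from 51774 (Spp1) to 0.747 (Itgax) per kb in KE.

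The genes of the myeloid lineage gave a scale for these falls. All 13 lineage markers were lower in KE, with a median log2FC of -3.37 and a range from -4.07 for Itgam to -2.95 for Ly86. The list was chosen with earlier results of these data known, so its range is a description only. Of other genes of myeloid cells, Inpp5d (-3.40) lay inside it, and Lyz2 (-4.66) and Syk (-2.47) outside. The complement genes C1qa, C1qc and C1qb, among the 4 highest of the list with Itgam, had log2FC of -3.12, -3.26 and -3.43. Trem2, Tyrobp, Clec7a and Cst7 lay inside that range. Gpnmb, Lpl, Apoe, Cd9 and Spp1 lay above it.

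To set each member against these genes within the same culture, the mean log2 value of the 13 markers was subtracted from every gene. KE replicates 1, 2 and 3 had a mean of 7.86, 8.36 and 7.80 and NT replicates one of 11.52, 11.56 and 11.17. KE replicate 2 was thus the KE culture with most myeloid transcript. Among the KE cultures, every member that fell was highest there: Trem2, Tyrobp, Clec7a, Cst7, Itgax, Gpnmb, Lpl and Apoe. Spp1 and Cd9 were not. For Itgax this rests on 3 reads, against 4 in KE replicate 3, after scaling for depth. Myeloid genes were not alone in this. The sum of a list of oligodendrocyte lineage markers was highest there too (34867 against 30570 and 29787), and that of neuron markers was not. Whether the myeloid level accounts for the spread of the falling members was not tested. On this relative scale Trem2 was -1.05 ± 0.35 in KE and -1.39 ± 0.19 in NT (SD, n = 3), a difference of 0.34. The difference was -0.10 for Tyrobp (-0.48 ± 0.18 against -0.38 ± 0.15), -0.21 for Clec7a (-1.42 ± 0.34 against -1.21 ± 0.27) and 0.04 for Cst7 (-4.04 ± 0.21 against -4.08 ± 0.19). The KE and NT values of these 4 genes overlapped, with exact two-sided permutation p of 0.2, 0.5, 0.5 and 0.7 in that order, none of which shows that the groups were alike. These differences are small enough for 1 culture to move them: without each culture in turn, Trem2 ran from 0.17 (without KE replicate 2) to 0.51 (without KE replicate 1) and Tyrobp from -0.19 (without KE replicate 1) to -0.01 (without KE replicate 3). Clec7a ran from -0.34 (without NT replicate 2) to -0.01 (without KE replicate 1), and Cst7 from -0.07 (without NT replicate 2) to 0.15 (without KE replicate 2). Relative to the markers, Gpnmb was higher in KE by 1.40 (2.73 ± 0.14 against 1.33 ± 0.11) and Lpl by 1.98 (1.70 ± 0.22 against -0.28 ± 0.15). Apoe was higher by 2.85 (6.86 ± 0.08 against 4.01 ± 0.25), Cd9 by 3.69 (4.85 ± 0.30 against 1.16 ± 0.26) and Spp1 by 4.05 (8.81 ± 0.32 against 4.75 ± 0.28). For these 5 the groups did not overlap, and the exact two-sided permutation p was 0.1, the smallest that 3 cultures against 3 can give. The same p was found for Itgax, whose difference of 1.56 rests on 2 to 4 reads a culture in KE. The lineage markers themselves fell in KE, so a gene that did not change also lies higher in KE on this scale. The share of all tested genes that separated on it was not counted. The overlap of the 4 genes depended on the reference. Against 9 homeostatic microglia markers, which include Sall1 and Olfml3, the 4 genes were lower in KE with no overlap, with differences of -0.75 for Trem2, -1.20 for Tyrobp, -1.30 for Clec7a and -1.06 for Cst7, and Gpnmb was higher by only 0.31 (exact two-sided permutation p of 0.1 for each). Over all tested genes, the median difference relative to the lineage markers was 3.41. Which cells carried the transcripts was not measured.

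**Figure D3:**
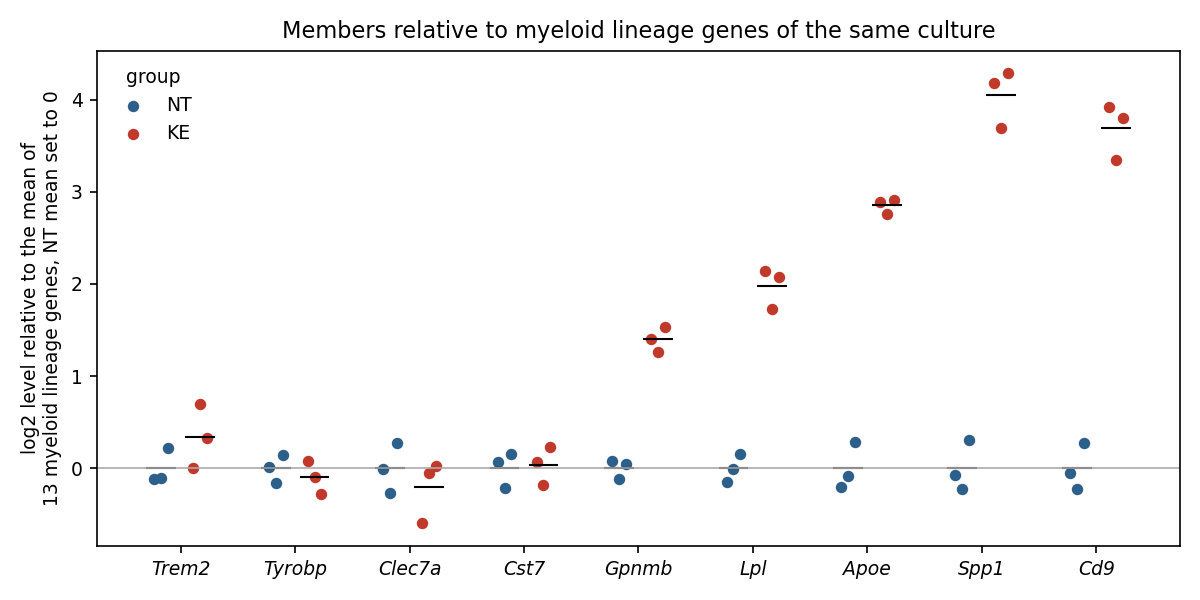
Level of each tested member relative to the mean of 13 myeloid lineage genes of the same culture (log2, NT mean set to 0), for 3 NT (blue) and 3 KE (red) cultures with lines at group means. Trem2, Tyrobp, Clec7a and Cst7 overlap between groups, while Gpnmb, Lpl, Apoe, Spp1 and Cd9 are higher in every KE culture, by 1.40 to 4.05 on average. The median over all tested genes was higher in KE by 3.41 on this scale.

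Markers of the cell types that the cultures could hold were examined next. Of the astrocyte list, 6 of 10 were upregulated, 2 downregulated and 2 not called, with a median log2FC of 0.33. Its highest genes Slc1a3, Gfap, Aldh1l1 and Slc1a2 had log2FC of 0.25, 0.87, 0.72 and 0.85, while Gja1 (-0.46) and Fgfr3 (-0.23) fell. The oligodendrocyte lineage list, a cell type that also expresses Cd9, had 7 of 9 tested genes downregulated and 1 upregulated (Cnp), with a median of -0.55, and Olig1, Olig2 and Pdgfra at -0.20, -0.55 and -0.87. Its summed level was 29787 to 34867 in KE and 38171 to 38399 in NT, and its myelin gene Mog reached at most 1.98 in any culture. Among 9 tested homeostatic microglia markers, 8 fell and Sall1 (0.03) was not called, with a median of -2.63. The next most abundant were Fcrls (-4.12), Cx3cr1 (-3.97) and Olfml3 (-0.73). Of the 4 tested markers of border-associated macrophages, Mrc1 (-4.66), Pf4 (-4.43) and Cbr2 (-0.75) fell, and F13a1 (-0.18) was not called. In the lists for neurons and for vascular and mesenchymal cells, Map2 (-0.51), Dcn (-0.65) and Pecam1 (-0.86) fell, Tubb3 (0.43) and Lum (0.39) rose, and the other 4 tested genes were not called. The part of these cells in the members' values was not tested.

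The tested genes downstream of TREM2, those that cleave it, and the related receptor gene Trem1 were lower in KE. The list for signalling and shedding holds 14 genes, of which 10 were tested and 10 fell, around a median of -2.82 on the log2 scale, where 26% of all genes were called lower. Syk, the kinase that TYROBP recruits, had a log2FC of -2.47 (295 ± 17.1 against 1698 ± 522, SD, n = 3). The guanine nucleotide exchange factor Vav3 had one of -0.95. The falls were small for the sheddases that release the TREM2 ectodomain, at -0.33 for Adam10 and -0.15 for Adam17, which many cells express. Of the rest, named after their values were seen, Inpp5d (-3.40), Vav1 (-3.20), Blnk (-3.16), Card9 (-3.88) and Trem1 (-3.83) lay in the range of the lineage markers, and Plcg2 (-1.61) above it. Hcst, Trem3, Treml2 and Treml4 did not reach the mean of 10.

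**Figure D4:**
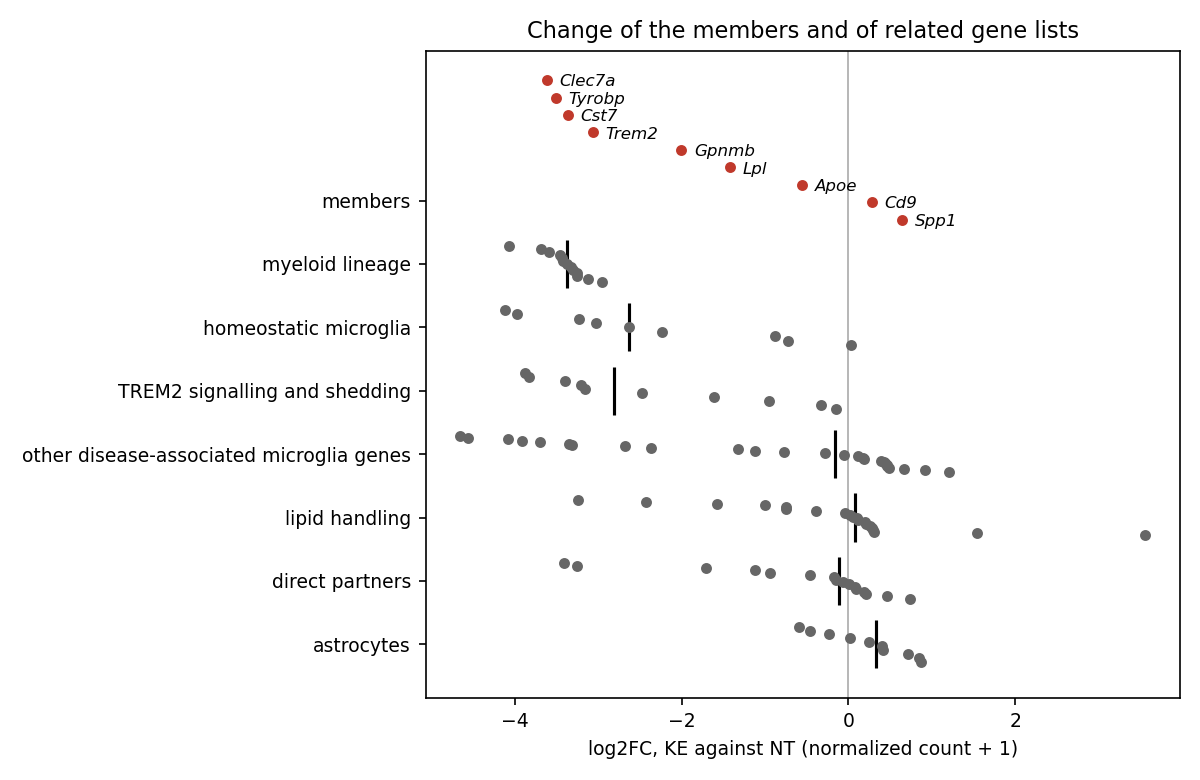
log2FC of KE against NT for the 9 tested members (red, named) and for the tested genes of 7 lists (grey, black line at the list median). The myeloid lineage genes sit between -4.07 and -2.95 with Trem2, Tyrobp, Cst7 and Clec7a, whereas the other disease-associated microglia genes spread from -4.66 to 1.21.

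Other disease-associated microglia genes moved in both directions. All 26 were tested, and 13 were downregulated, 10 upregulated and 3 not called, with a median log2FC of -0.17. The 4 most abundant were Fth1, which encodes the ferritin heavy chain (0.48), the cathepsins Ctsd (-0.77) and Ctsb (0.12, not called) and B2m, the light chain of MHC class I (1.21). The other upregulated genes were Axl (0.47), Csf1 (0.67), Ctsl (0.44), Cd63 (0.39), Ank (0.42), Serpine2 (0.46), Cadm1 (0.92) and Hif1a (0.18). Among the downregulated genes, the myeloid lysozyme gene Lyz2, named after its values were seen, fell furthest, from 63608 ± 2504 to 2557 ± 622 (SD, n = 3) with a log2FC of -4.66. Ccl6 (-4.56), Ch25h (-4.08) and Lilrb4a (-3.91), also named afterwards, were next.

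Genes of lipid handling showed no shared direction. Of 20 tested, 7 were downregulated, 6 upregulated and 7 not called, with a median log2FC of 0.08. Clu (0.10) and Lrp1 (-0.04), an apolipoprotein and a receptor for apolipoprotein E, were the most abundant and were not called. Upregulation was found for Apod (3.56), Lcat (1.54), Lmf1 (0.31), which is needed for the maturation of lipoprotein lipase, Npc2 (0.29), Nr1h2 (0.29) and the cholesterol exporter Abca1 (0.21). Apod, however, was only 81.2 ± 1.02 in KE and 7.33 ± 6.28 in NT (SD, n = 3). Apoc1 and Apoc2, the neighbours of Apoe named after their values were seen, had log2FC of -1.58 and -2.42 at levels of 5.68 to 34.0 on average. The scavenger receptor Cd36, also named afterwards, had a log2FC of -3.25.

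Direct partners of the members were mixed as well, with 6 of 16 downregulated, 3 upregulated and 7 not called. The osteopontin receptor Cd44 rose with Spp1, from 14313 ± 202 to 23857 ± 1609 (SD, n = 3; log2FC 0.74), and the tetraspanin Cd81 (0.46) and Ptgfrn (0.21), which associate with Cd9, rose as well. Of the integrin subunits that form osteopontin receptors, Itgb1 (-0.15) and Itgav (0.01), the most abundant in the list with Cd44 and Cd81, were not called, whereas Itgb5 (-0.47) and Itgb3 (-0.94) fell. Itgb2, the partner of Itgax and also 1 of the 13 lineage markers, had a log2FC of -3.25. Among the MITF-family factors, Mitf (0.08), Tfeb (0.19) and Tfe3 (0.09) were not called, and Tfec fell by 3.41 on the log2 scale from a mean of 68.3. The cathepsins Ctsc (-1.70) and Ctsh (-1.12), which cystatin F can inhibit, fell less than Cst7. These genes, apart from Cd44, Cd81, Ptgfrn, Itgb1 and Itgav, were named after their values were seen.

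The genes most like Trem2 over the 6 cultures, by Pearson's r of log2(normalized count + 1) among 12064 genes with a mean of at least 100, were Sall3, Asf1b, Prpf4, Tbxas1 and Wdr83os, each with r of at least 0.9989. Those most like Apoe were Syngr1, Cenpb, Vangl2, Ppp1ca and Srf, with r of at least 0.9960. With 6 cultures in 2 groups, r follows the difference between KE and NT above all, and 1168 and 348 genes had an r above 0.95 with Trem2 and with Apoe. The log2FC of the genes most like Trem2 ran from -4.03 for Tbxas1 to -0.22 for Prpf4, so a like pattern did not mean a like size of change.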

How the data were processed

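The members and gene lists were chosen with earlier results of these data known. The submitters' processing notes name Trim Galore, STAR, Salmon and DESeq2, with GRCh38 as build, although all gene identifiers are of mouse. The transcriptome paragraph of the methods, which lists hippocampus and spheroid samples and names astrocytes for a fold threshold, gives Gencode vM28 on GRCm39 for mouse and an adjustment for batches, and no batch is labelled for the cultures. The values were deposited as a signal that the authors obtained by scaling gene counts for depth. Because only 75.2% to 77.7% of low values came within 0.1 of whole reads, count models were not used.

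Values were analysed as log2(normalized count + 1) in R 4.3.3 by limma 3.58.1, comparing KE with NT with a trended prior variance. Genes had to reach a mean of 10 over the 6 cultures (15280 genes), and two-sided p-values were adjusted over all of them by Benjamini-Hochberg. After subtraction of the myeloid markers, all genes share the error of that reference, which makes moderated p-values too small, so exact permutation tests over cultures replaced the limma test that had been planned. Named genes were the members, the 4 most abundant genes of each list, genes called against the main direction of their list, genes in counts of 5 or fewer, the 5 genes most like Trem2 and Apoe, Braf, and others where stated. The labels number the cultures 1 to 3 without saying that they are separate preparations, so p-values measure the spread between these samples. Coordinates, lengths and sequences are from Gencode vM39 on GRCm39, in which 54749 of 55357 identifiers were found. Alternatives were other pseudocounts, filters and scalings, no trend, a replicate block, another reference and leaving out each culture. A gene of the lipid handling list and 1 promoter sequence are not reported here.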

Additional observations from a re-analysis of the deposited data

How the results depend on the processing

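The log2FC of KE against NT kept its direction and its call for all 9 tested members under pseudocounts of 0.5 and 5, no filter, a mean of at least 50, the untrended limma fit, quantile normalization, 75th percentile scaling, the replicate block and without each culture in turn. The members called lower were 7, or 8 with no filter, where Itgax entered with a log2FC of -1.85, and 2 were called higher throughout. Over the alternatives the adjusted p from limma reached 0.0232 for Cd9 and 0.0152 for Apoe at most. The total of called genes ran from 6792 to 7212 without 1 culture and from 7144 to 8046 otherwise. To look for pairing, the group mean of each gene was subtracted, and the deviations left in KE cultures were correlated with those in NT cultures. Those of every culture correlated best with those of its own number in the other group. The r across genes was 0.059 to 0.066, against -0.050 to -0.010 for the other pairs. This is a hint from the data but below the 0.1 taken here to mean pairing. With the replicate block 8046 genes were called, 7669 of them also without it. The relative values depended on the reference: against the homeostatic markers, a list that holds Sall1 and Olfml3, they were -0.75 for Trem2, -1.20 for Tyrobp, -1.30 for Clec7a, -1.06 for Cst7, 0.31 for Gpnmb, 0.89 for Lpl, 1.76 for Apoe, 2.60 for Cd9 and 2.96 for Spp1. This change of reference shifts all members by the same amount. With a pseudocount of 5, the relative value of Cst7 was 0.31. Its own log2FC was then -3.07, against -3.37 in the main fit, at a mean of only 14.8 normalized counts in KE. The cause was not tested. Low depth limits Itgax, at 2 to 14 reads a culture.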
